A study of Mus musculus with 6 samples.

Results

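The genes described here encode the enzymes of mitochondrial fatty acid oxidation and ketogenesis. The list holds 30 genes picked by symbol out of 54532 genes listed by Ensembl identifier in the count table, and all 30 passed the filter on low counts. Liver RNA was sequenced from 6 wild-type (WT) male C57BL/6J mice, 1 library per mouse. The 3 HFD mice and the 3 HFD+Allantoin-H mice entered at 8 weeks of age and ate a high-fat diet for 4 weeks and then for another 4 weeks. During the second period the HFD+Allantoin-H mice (Allantoin-H) also drank water with allantoin, the compound that uric acid gives on oxidation, at 0.3 mg/mL. A lower concentration also stands in the labels, none is tied to a single library there, and the higher one was assigned here by the group's name. Each library is a piece of whole liver, in which fewer cells of a type and less RNA per cell cannot be told apart.

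Fatty acids are burned in the mitochondrial matrix. The carnitine shuttle carries the long-chain acyl groups across the inner membrane, an acyl-CoA dehydrogenase for each chain length draws off the first electrons, and a hydratase, another dehydrogenase and a thiolase finish each turn of the spiral. The electron transfer flavoprotein, a dimer of the Etfa and Etfb products, collects the electrons from all acyl-CoA dehydrogenases and passes them to the Etfdh product and on to ubiquinone. In the fasting liver much of the acetyl-CoA becomes ketone bodies, and propionyl-CoA from odd-chain fats and from some amino acids enters the citric acid cycle through a carboxylase, an epimerase and a mutase. Many genes of the pathway are known targets of the nuclear receptor PPARα.

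The promoters of 4 genes are shown. Acadvl had the largest change of the 30 genes, and Etfdh and Etfb the widest difference among the paired genes compared. Hadhb shares bases of its window with its partner Hadha. Promoter windows from RefSeq (GRCm38.p6), running from 250 bases before the start site to 50 bases after it, were found for 24 of the 30 genes. Hadha and Hadhb, which encode the partner subunits of the trifunctional protein, are read in opposite directions from start sites 272 bases apart on chromosome 5, so that their windows share 228 bases, in capitals in the Hadhb window (chr5:30155003-30155302, plus strand). In the other windows capitals mark the nuclear receptor half-site AGGTCA, the NRF1 motif GCGCATGCGC and CCAAT, each on either strand. Acadvl (chr11:70015379-70015678, minus strand) has the half-site, Etfdh (chr3:79628718-79629017, minus strand) has the NRF1 motif and CCAAT, and Etfb (chr7:43443822-43444121, plus strand) has CCAAT read on the other strand at 2 places.
Hadhb: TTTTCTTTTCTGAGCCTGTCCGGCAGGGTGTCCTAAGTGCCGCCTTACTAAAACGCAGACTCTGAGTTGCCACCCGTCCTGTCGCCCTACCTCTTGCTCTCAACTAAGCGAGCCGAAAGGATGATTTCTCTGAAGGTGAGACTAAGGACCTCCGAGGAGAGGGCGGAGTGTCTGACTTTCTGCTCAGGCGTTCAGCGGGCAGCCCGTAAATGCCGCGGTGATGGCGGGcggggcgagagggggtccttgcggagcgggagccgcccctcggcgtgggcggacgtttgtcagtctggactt
Acadvl: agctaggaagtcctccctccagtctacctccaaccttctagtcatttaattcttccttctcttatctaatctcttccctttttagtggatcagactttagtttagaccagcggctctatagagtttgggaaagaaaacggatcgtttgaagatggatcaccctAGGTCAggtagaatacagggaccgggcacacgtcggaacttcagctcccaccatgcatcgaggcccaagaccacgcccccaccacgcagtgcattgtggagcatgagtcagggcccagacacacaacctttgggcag
Etfdh: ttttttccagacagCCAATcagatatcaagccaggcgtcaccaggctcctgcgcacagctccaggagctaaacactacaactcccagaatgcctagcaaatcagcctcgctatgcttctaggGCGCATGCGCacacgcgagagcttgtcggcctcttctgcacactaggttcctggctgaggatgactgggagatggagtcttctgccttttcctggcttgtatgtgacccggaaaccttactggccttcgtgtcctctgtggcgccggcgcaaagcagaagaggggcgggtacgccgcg
Etfb: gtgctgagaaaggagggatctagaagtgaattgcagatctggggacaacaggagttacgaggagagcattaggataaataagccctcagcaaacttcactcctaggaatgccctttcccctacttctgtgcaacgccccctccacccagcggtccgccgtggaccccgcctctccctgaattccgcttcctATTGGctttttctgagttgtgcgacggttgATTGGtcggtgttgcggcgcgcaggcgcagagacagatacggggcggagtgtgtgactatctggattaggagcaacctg
A half-site was found in the windows of 5 of the 24 genes (Cpt1a, Acadvl, Acadm, Echs1 and Pcca) and in 16.3% of all 32851 windows. The NRF1 motif was in 2 of the 24 (Acad10 and Etfdh), against 0.971% of all windows, and CCAAT in 11, against 37.4%. The direct repeat AGGTCANAGGTCA, the form that PPARα binds with its partner RXR, was matched with up to 2 mismatches in Etfa, Echs1 and Pcca, against 3.86% of all windows, and the letters overlap with the half-site. The E-box CACGTG was in no window of the 24 genes, against 7.15%. A gene with more than a single window (Bdh1 and Pcca) was counted if any of its windows matched, whereas the shares are over single windows. A match of letters is a description of the window and says nothing of binding.

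The libraries held 11326372 to 14601457 counts. The share of counts from the mitochondrial chromosome was 17.1% to 35.5% in HFD and 6.68% to 11.1% in Allantoin-H mice, and the normalization factors (TMM) ran from 0.756 to 0.951 and from 1.12 to 1.19. Levels are given as CPM, counts scaled to a common normalized library size. All 8 hepatocyte markers were present, with a summed level of 84590 to 85080 CPM in HFD and 68250 to 96220 CPM in Allantoin-H mice. Of these 8, Apoa1 (log2 fold change -1.23, adjusted p = 0.0079) and Ttr (-0.79, adjusted p = 0.0211) fell, Cps1 rose (1.05, adjusted p = 0.0385) and the other 5 did not pass. Of 3 bile duct markers tested, Sox9 fell (log2 fold change -3.17, adjusted p = 0.00735), and the summed level of the list was 34.3 to 158.5 CPM in HFD and 21.7 to 76.7 CPM in Allantoin-H mice. The part of these markers in the results was not tested. Among the markers of other cells, 3 of 7 macrophage genes and 5 of 7 stellate cell genes rose, where 11.3% of all tested genes did. Their summed levels did not overlap: 106 to 255 against 300 to 339 CPM for macrophages and 134 to 197 against 301 to 365 CPM for stellate cells. Of 8 adipocyte genes 4 were tested and none passed. The summed level of all 8 was 3223 to 4255 CPM in HFD and 2522 to 3860 CPM in Allantoin-H mice. Adipoq and Plin1 were near 0 in all libraries other than HFD replicate 2, where Adipoq was at 51.4 and Plin1 at 49.2 CPM. Car3 was at 2473 to 4140 CPM over all libraries and made up most of that sum in each. The sum therefore does not show how the other adipocyte genes differed between libraries. Of the skeletal muscle markers, Ckm, Myh4 and Tnnt3 had no count in any library. HFD replicate 1 had the highest mitochondrial share and was the lowest HFD library for 24 of the 30 genes. The part of these differences in the results was not tested. No batch or date is given.

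The log2 fold change of Allantoin-H over HFD livers was above 0 for 24 of the 30 genes and below 0 for 6. Among all tested genes it was above 0 for 6170 and below 0 for 6625. By edgeR's quasi-likelihood test 17 of the 30 genes rose at an adjusted p under 0.05, where 11.3% of all 12795 tested genes rose, and 2 fell, where 13.0% of all genes fell. The list was chosen with earlier results of these data known, so these counts are a description and not independent evidence. The other 11 did not pass. The median log2 fold change was 0.64 over the 30 genes and -0.03 over all tested genes. In 20 genes every Allantoin-H library was above every HFD library, which was so for 22.4% of all genes, and in 2 every one was below, against 21.9%. Together the 30 genes took 0.333%, 0.541% and 0.562% of the counts in HFD replicates 1 to 3 and 0.942%, 0.942% and 0.874% in Allantoin-H replicates 4 to 6. These shares are of counts that include the mitochondrial chromosome, which took a larger share in every HFD library than in any Allantoin-H library. The summed normalized level of the 30 genes was 4412, 6038 and 5920 CPM in HFD and 7901, 8117 and 7835 CPM in Allantoin-H mice. The number of genes that rose was 15, 16 and 17 without HFD replicate 1, 2 and 3, but 8, 6 and 9 without Allantoin-H replicate 4, 5 and 6. Over all tested genes the number that rose went from 1446 to 596, 460 and 702 in these last fits. The genes that kept their call under all 16 alternatives were Acadvl, Acad9, Acad11, Etfdh, Hadha and Mut among those that rose, and Etfb and Mcee.

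**Figure D1:**
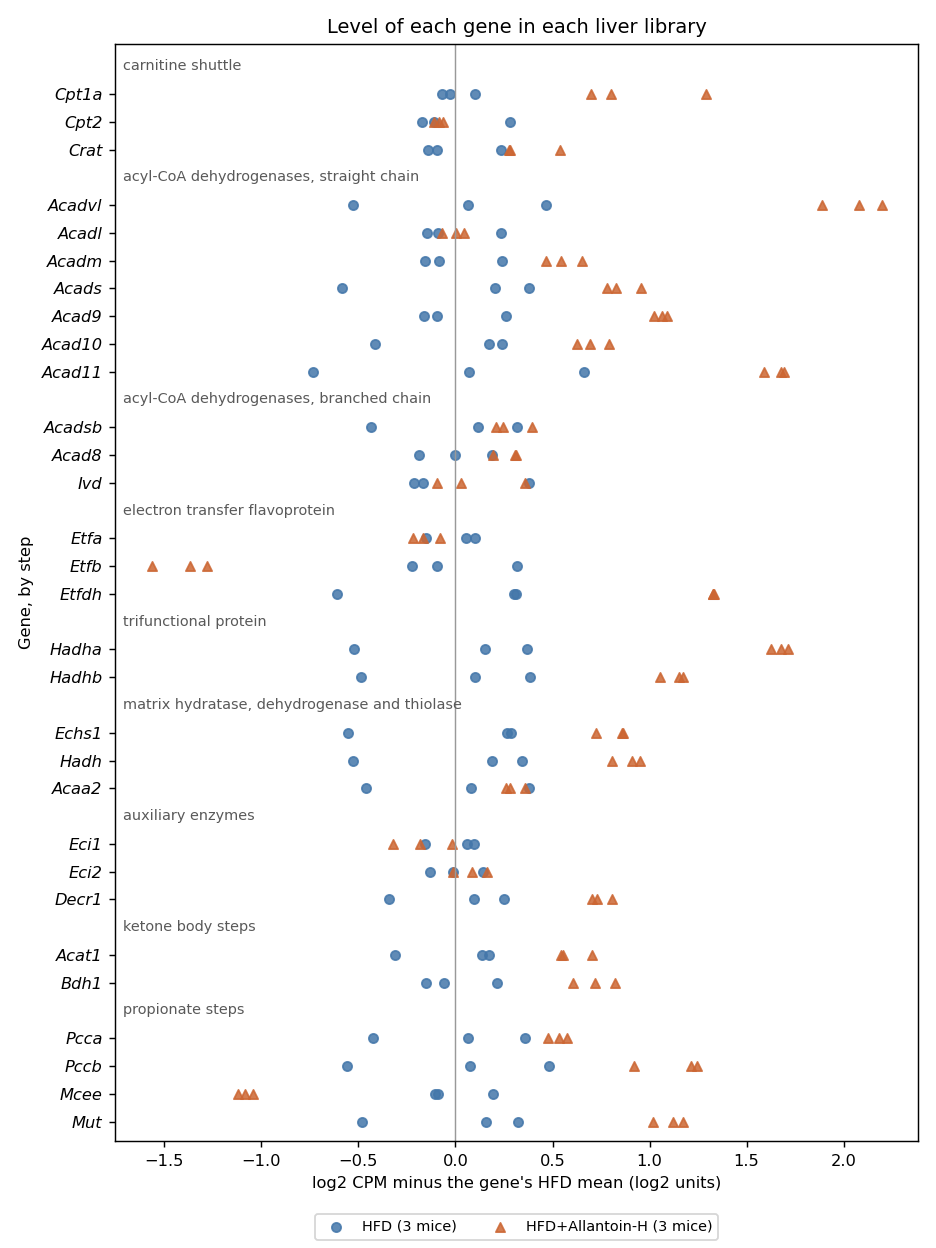
Level of the 30 genes in each library, as log2 CPM minus the mean of the 3 HFD mice (x axis, log2 units), with genes on the y axis by step. Circles are HFD mice and triangles Allantoin-H mice. The triangles lie to the right of all circles for 20 genes and to the left for Etfb and Mcee.

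In the carnitine shuttle 1 of 3 genes rose, the one at its entry. Cpt1a (chromosome 19, 3322334 to 3385733) encodes the outer-membrane carnitine palmitoyltransferase, the step that malonyl-CoA inhibits. Its level was 273, 265 and 298 CPM in HFD replicates 1 to 3 and 485, 681 and 451 CPM in Allantoin-H replicates 4 to 6. The groups did not overlap, and Cpt1a rose 1.93-fold (279 ± 17.4 to 539 ± 124 CPM, SD, n = 3; log2 fold change 0.95, standard error 0.20, adjusted p = 0.0106). Replicate 5 was the highest, and without it the log2 fold change was 0.75 and the adjusted p 0.0529 (7.72e-05 to 0.0529 over all alternatives). Cpt2, which encodes the inner-membrane transferase that completes the transfer, was at 200, 273 and 208 CPM in HFD and at 208, 215 and 212 CPM in Allantoin-H mice. Its log2 fold change was -0.10 (95% interval -0.49 to 0.29, adjusted p = 0.704). Crat, whose product makes acetylcarnitine, was at 67.5 to 87.8 CPM in HFD and at 90.4 to 108 CPM in Allantoin-H mice, with no overlap, and did not pass the test (log2 fold change 0.36, adjusted p = 0.154).

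Among the acyl-CoA dehydrogenases of straight chains, 6 of 7 rose, and they differed widely in how much. Acadvl (chromosome 11, 70010183 to 70015411), the gene of the inner-membrane enzyme for very long chains, was at 28.5, 56.9 and 43.0 CPM in HFD and at 175, 189 and 153 CPM in Allantoin-H mice. That was the largest change of the 30 genes (log2 fold change 2.01, 95% interval 1.44 to 2.58, adjusted p = 0.00296). Of its annotated exon bases 42.85% also lie in Dvl2 on the other strand, and the counting is not stated to use strand. Dvl2 had 32 to 74 counts in any library and a log2 fold change of -0.02. Since the handling of reads in shared exons is not stated, these counts do not show whether the overlap affected Acadvl. Acad11 (chromosome 9, 104063377 to 104127725), for an enzyme of long-chain substrates, followed with 80.4, 140 and 211 CPM in HFD and 402, 433 and 427 CPM in Allantoin-H mice. The HFD mice were spread over a wider range than the Allantoin-H mice, and the groups did not overlap (log2 fold change 1.55, standard error 0.31, adjusted p = 0.00938). Acad9 (chromosome 3, 36065979 to 36092853), whose product also serves in the assembly of complex I, was at 11.5, 14.7 and 10.95 CPM and at 25.1, 26.3 and 25.9 CPM. It rose within a narrow spread (2.08-fold, log2 fold change 1.06, standard error 0.18, adjusted p = 0.00542), although parts of its transcript are repeated nearly unchanged in many other genes and its counts are therefore less certain.

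The genes of the medium-chain and short-chain enzymes had smaller fold changes than Acadvl. Acadm (chromosome 3, 153922357 to 153944632), the medium-chain enzyme, was at 322, 339 and 424 CPM in HFD and 496, 523 and 564 CPM in Allantoin-H mice. It passed the test narrowly (1.46-fold, log2 fold change 0.54, adjusted p = 0.0480) and did not pass without HFD replicate 1 or 2 or without any Allantoin-H library (0.46 to 0.60). Acads (chromosome 5, 115110299 to 115119346), the short-chain enzyme, was at 57.0, 111 and 98.6 CPM and at 147, 166 and 152 CPM. It rose 1.74-fold (log2 fold change 0.80, standard error 0.24, adjusted p = 0.0412) and lost the call without Allantoin-H replicate 4, 5 or 6, at 0.84, 0.75 and 0.82. Acad10 (chromosome 5, 121621026 to 121660514), a less studied member of the family that is 95.3% identical to Acad12 over 1614 bases, was at 15.2 to 24.0 CPM and at 31.4 to 35.2 CPM. Its log2 fold change was 0.68 (adjusted p = 0.0371), and 0.69, 0.64 and 0.72 without a call when these same libraries were left out. Acadl was the exception. The gene of the long-chain enzyme was at 195, 203 and 253 CPM in HFD and at 216, 205 and 222 CPM in Allantoin-H mice, and its interval lay around 0 (log2 fold change -0.02, 95% interval -0.39 to 0.36, adjusted p = 0.955). The upper end of that interval is below the lower end for Acadvl, which serves overlapping chain lengths.

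The 3 dehydrogenases of branched chains, which break down valine, isoleucine and leucine, did not pass the test. Acadsb (short and branched chains) was at 80.4 to 136 CPM in HFD and at 126 to 143 CPM in Allantoin-H mice, Acad8 (isobutyryl-CoA) at 36.6 to 47.6 and at 47.7 to 51.7 CPM, and Ivd (isovaleryl-CoA) at 127 to 191 and at 138 to 189 CPM. Their log2 fold changes were 0.25, 0.26 and 0.09, with adjusted p of 0.401, 0.255 and 0.802. Intervals reached from -0.39 to 0.72, so that a rise as large as that of Acadm was within them.

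The 3 genes of the electron transfer flavoprotein and its oxidoreductase went 3 ways. Etfdh (chromosome 3, 79603788 to 79629500), which encodes the membrane enzyme that hands the electrons to ubiquinone, was at 84.1, 159 and 160 CPM in HFD and at 325, 323 and 323 CPM in Allantoin-H mice. The Allantoin-H libraries lay close together (SD 0.608 CPM) and above all HFD libraries, and Etfdh rose 2.41-fold (log2 fold change 1.27, standard error 0.25, adjusted p = 0.00864). Etfa (chromosome 9), the alpha subunit of the flavoprotein, was at 310, 371 and 358 CPM and at 308, 297 and 327 CPM. The groups overlapped, and its log2 fold change was -0.16 (95% interval -0.51 to 0.19, adjusted p = 0.489). Etfb (chromosome 7, 43444083 to 43457800), the beta subunit, was at 161, 121 and 110 CPM in HFD and at 52.9, 49.8 and 43.4 CPM in Allantoin-H mice. All 3 Allantoin-H libraries were below all HFD libraries, and Etfb fell 2.68-fold (log2 fold change -1.42, standard error 0.19, adjusted p = 0.00348). Of its exon bases 53.01% also lie in the predicted gene Gm45233 on the same strand, and no read was counted to Gm45233 in any library. How reads in shared exons were assigned is not stated, so this does not show whether the overlap affected the counts of Etfb. The level of Etfb per kilobase, given below, carries the same uncertainty.

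Both genes of the trifunctional protein, the inner-membrane complex that carries out the last 3 reactions of the spiral on long chains, rose. Hadha (chromosome 5, 30118304 to 30155162), for the hydratase and dehydrogenase subunit, was at 87.5, 162 and 140 CPM in HFD and at 403, 413 and 389 CPM in Allantoin-H mice. Hadhb (chromosome 5, 30155248 to 30184593), for the thiolase subunit, was at 87.7, 132 and 160 CPM and at 255, 273 and 277 CPM. Neither gene overlapped between the groups. Hadha rose 3.09-fold (log2 fold change 1.63, standard error 0.23, adjusted p = 0.00389) and Hadhb 2.12-fold (1.08, 0.22, adjusted p = 0.0106). Their promoter windows share the bases in capitals above, which lie between the start sites. The part of that sequence in the changes was not tested. Without Allantoin-H replicate 5 the adjusted p of Hadhb was 0.0506 at a log2 fold change of 1.08 (8.18e-06 to 0.0506 over all alternatives). The processed pseudogene Gm13910 is 99.8% identical to Hadhb over 1428 bases, had 106 to 308 counts in HFD and 971 to 1279 in Allantoin-H libraries, and may hold reads of Hadhb. With the counts of Gm13910 and of another pseudogene, Gm9108, added to it, an alternative chosen after seeing the data, the log2 fold change of Hadhb was 1.21.

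**Figure D2:**
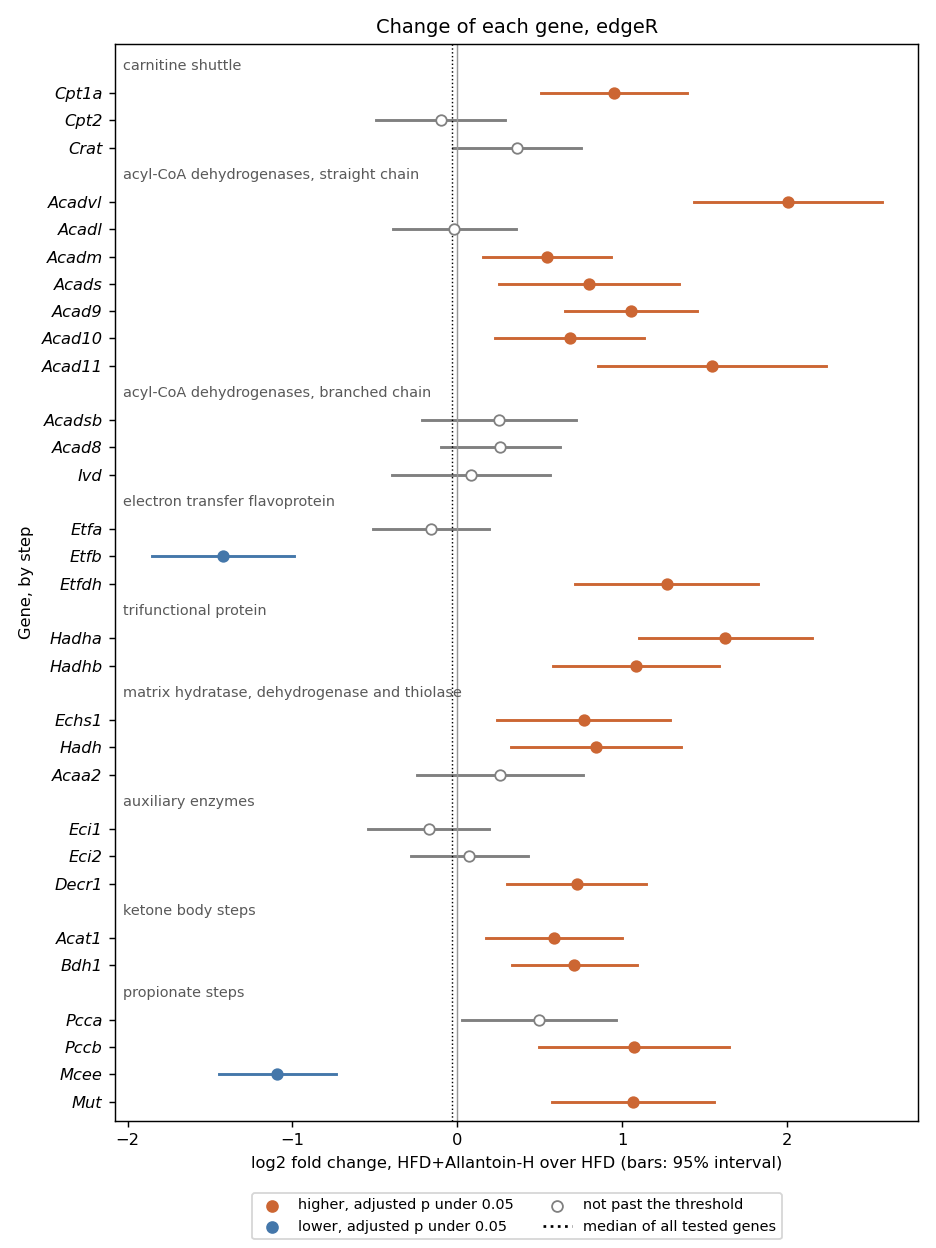
Log2 fold change of the 30 genes, Allantoin-H over HFD (x axis), with bars for the 95% interval from edgeR and genes on the y axis by step. Filled orange points rose and filled blue points fell at an adjusted p under 0.05, open points did not pass, and the dotted line is the median of all tested genes at -0.03. Acadvl is highest at 2.01 and Etfb lowest at -1.42.

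For shorter chains the same reactions are run by separate soluble enzymes. Echs1 (chromosome 7, 140105710 to 140116476), the short-chain hydratase, was at 97.1, 172 and 174 CPM in HFD and at 260, 259 and 236 CPM in Allantoin-H mice. Hadh (chromosome 3, 131233419 to 131272101), the dehydrogenase, was at 155, 254 and 283 CPM and at 419, 431 and 391 CPM. Both rose without overlap, Echs1 1.70-fold (log2 fold change 0.77, standard error 0.23, adjusted p = 0.0412) and Hadh 1.79-fold (0.84, 0.23, adjusted p = 0.0284). Both lost the call when any Allantoin-H library was left out (0.75 to 0.81 and 0.82 to 0.89). Acaa2, the thiolase, had 650, 1159 and 945 CPM in HFD and 1145, 1070 and 1084 CPM in Allantoin-H mice. The low value of HFD replicate 1 made a wide spread, and Acaa2 did not pass (log2 fold change 0.26, 95% interval -0.24 to 0.76, adjusted p = 0.420).

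Of the auxiliary enzymes, which ready unsaturated fatty acids for the spiral, Decr1 alone passed. Decr1 (chromosome 4, 15917240 to 15945507), the dienoyl-CoA reductase, was at 145, 219 and 196 CPM in HFD and at 322, 299 and 305 CPM in Allantoin-H mice, a 1.65-fold rise (log2 fold change 0.73, standard error 0.19, adjusted p = 0.0235). The call was lost without any 1 of the Allantoin-H libraries (0.70 to 0.75) and with a fitted trend on length and GC content taken out (0.53). The isomerase gene Eci1 was at 213 to 255 CPM and at 191 to 235 CPM (log2 fold change -0.17, adjusted p = 0.465). Its paralog Eci2 was at 226 to 274 CPM and at 245 to 277 CPM (0.07, adjusted p = 0.762). Their intervals ended at 0.19 and 0.43. A test between Decr1 and the isomerases was not run.

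Both genes of ketone body steps rose. Acat1 (chromosome 9, 53580522 to 53610382), the mitochondrial acetoacetyl-CoA thiolase, was at 292, 408 and 397 CPM in HFD and at 532, 528 and 590 CPM in Allantoin-H mice. It rose 1.50-fold (log2 fold change 0.59, standard error 0.18, adjusted p = 0.0448), the least secure call of the 17: it was lost in 7 of 16 alternatives, among them leaving out HFD replicate 1 or 2 (0.45 and 0.67) or any Allantoin-H library (0.54 to 0.62). Bdh1 (chromosome 16, 31422280 to 31458901), which turns acetoacetate into beta-hydroxybutyrate, was at 190, 178 and 230 CPM and at 301, 326 and 350 CPM. The groups did not overlap (1.64-fold, log2 fold change 0.71, standard error 0.17, adjusted p = 0.0173), and the call was lost without Allantoin-H replicate 4, 5 or 6, at 0.77, 0.72 and 0.66.

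The propionate steps held the second gene that fell. Pccb (chromosome 9, 100982032 to 101034898), the beta subunit of propionyl-CoA carboxylase, was at 47.1, 73.3 and 97.2 CPM in HFD and at 165, 161 and 132 CPM in Allantoin-H mice. It rose 2.10-fold (log2 fold change 1.07, standard error 0.26, adjusted p = 0.0181), and at 1.02 and 1.03 without Allantoin-H replicate 4 or 5 it did not pass. Pcca, the biotin-carrying alpha subunit, was at 40.4, 69.7 and 56.8 CPM and at 81.0, 75.6 and 78.6 CPM, without overlap (log2 fold change 0.49, adjusted p = 0.110), and passed only without HFD replicate 2 (0.69) or with library size as the sole scaling (0.89). The next enzyme, methylmalonyl-CoA epimerase, is encoded by Mcee (chromosome 7, 64392607 to 64412125), which was at 67.1, 82.8 and 68.0 CPM and at 34.02, 33.2 and 35.0 CPM. Every Allantoin-H library was below every HFD library, and Mcee fell 2.13-fold (log2 fold change -1.09, standard error 0.16, adjusted p = 0.00392). Mut (chromosome 17, 40934685 to 40961988), the cobalamin-dependent mutase that takes over the epimerase's product, was at 57.9, 90.3 and 101 CPM and at 164, 176 and 182 CPM. It rose 2.09-fold (log2 fold change 1.07, standard error 0.22, adjusted p = 0.0102), in the opposite direction to the epimerase.

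Ratios of counts within a library do not depend on the scaling between libraries. They can still carry a trend with transcript length, and Etfb and Mcee have the shortest transcripts of the 30 genes. With the length and GC trend removed, the log2 fold change was 1.18 for Etfdh and -0.93 for Etfb, against 1.27 and -1.42. It was 0.84 for Mut and -0.78 for Mcee, against 1.07 and -1.09. The ratios themselves were not recomputed in that fit. The log2 ratio of Etfa to Etfb, the partners of the flavoprotein, was 0.95, 1.62 and 1.70 in HFD and 2.54, 2.58 and 2.91 in Allantoin-H mice, a difference of 1.25 or 2.38-fold. That of Etfdh to Etfb was -0.93, 0.40 and 0.53 against 2.62, 2.70 and 2.90, the widest difference of the 9 ratios at 6.68-fold. HFD replicate 1 lay lowest in both. The ratio of Mut to Mcee was -0.21, 0.13 and 0.57 in HFD and 2.27, 2.40 and 2.38 in Allantoin-H mice, 4.56-fold apart. Hadha to Hadhb gave -0.004, 0.30 and -0.20 against 0.66, 0.60 and 0.49 (1.46-fold), so that the subunit genes moved unequally, and the difference went from 0.55 to 0.42 with the pseudogene counts added to Hadhb. The membrane hydratase gained on the soluble one (Hadha to Echs1, 1.81-fold), and Acadvl gained on both Acads (2.31-fold) and Acad9 (1.99-fold), its closest relative among the 30. Cpt2 to Cpt1a went the other way, to 0.494 of the HFD ratio. In these 8 ratios the groups did not overlap. The exact two-sided permutation test gave p = 0.1 for each, the smallest that 3 against 3 libraries allow, or 0.112 adjusted over 9 ratios. The pairs were drawn from the 30 genes and no share over other gene pairs was computed, so the count of 8 is a description. Pcca to Pccb overlapped between the groups (-0.78 to -0.07 against -1.09 to -0.74; exact permutation p = 0.2, adjusted 0.2).

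**Figure D3:**
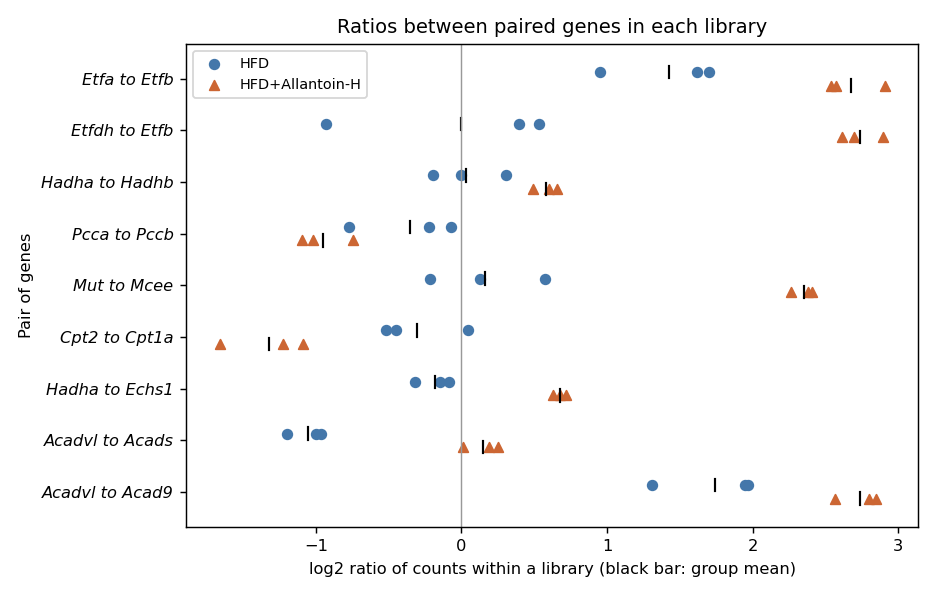
Log2 ratio of the counts of paired genes within each library (x axis) for the 9 pairs on the y axis. Circles are HFD mice, triangles Allantoin-H mice and black bars group means. The groups are apart in 8 pairs and overlap for Pcca to Pccb.

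Levels of different genes were compared per kilobase of transcript. On this scale Acaa2 was the highest of the 30 genes in both groups, with 18.8% to 24.8% of their summed level per kilobase in HFD and 19.2% to 20.6% in Allantoin-H mice, and Acad9 was the lowest, with 0.0934% to 0.183%. Etfb went from the fifth place of 30 in HFD to place 21 in Allantoin-H mice, from 4.14% to 7.87% of the summed level to 1.35% to 1.62%. Etfa held 8.63% to 9.76% and then 5.81% to 6.53%. The genes of the flavoprotein dimer thus stood nearest to each other in HFD replicate 1 (7.87% and 9.76%) and farthest apart in Allantoin-H replicate 6 (1.35% and 6.53%). Mcee went from place 12 to place 24, while Etfdh went from place 17 to 9, Hadh from 7 to 3 and Hadha from 21 to 16. The position of neighbours in this order, such as Echs1 and Acat1 in Allantoin-H mice, was within the spread of the libraries.

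**Figure D4:**
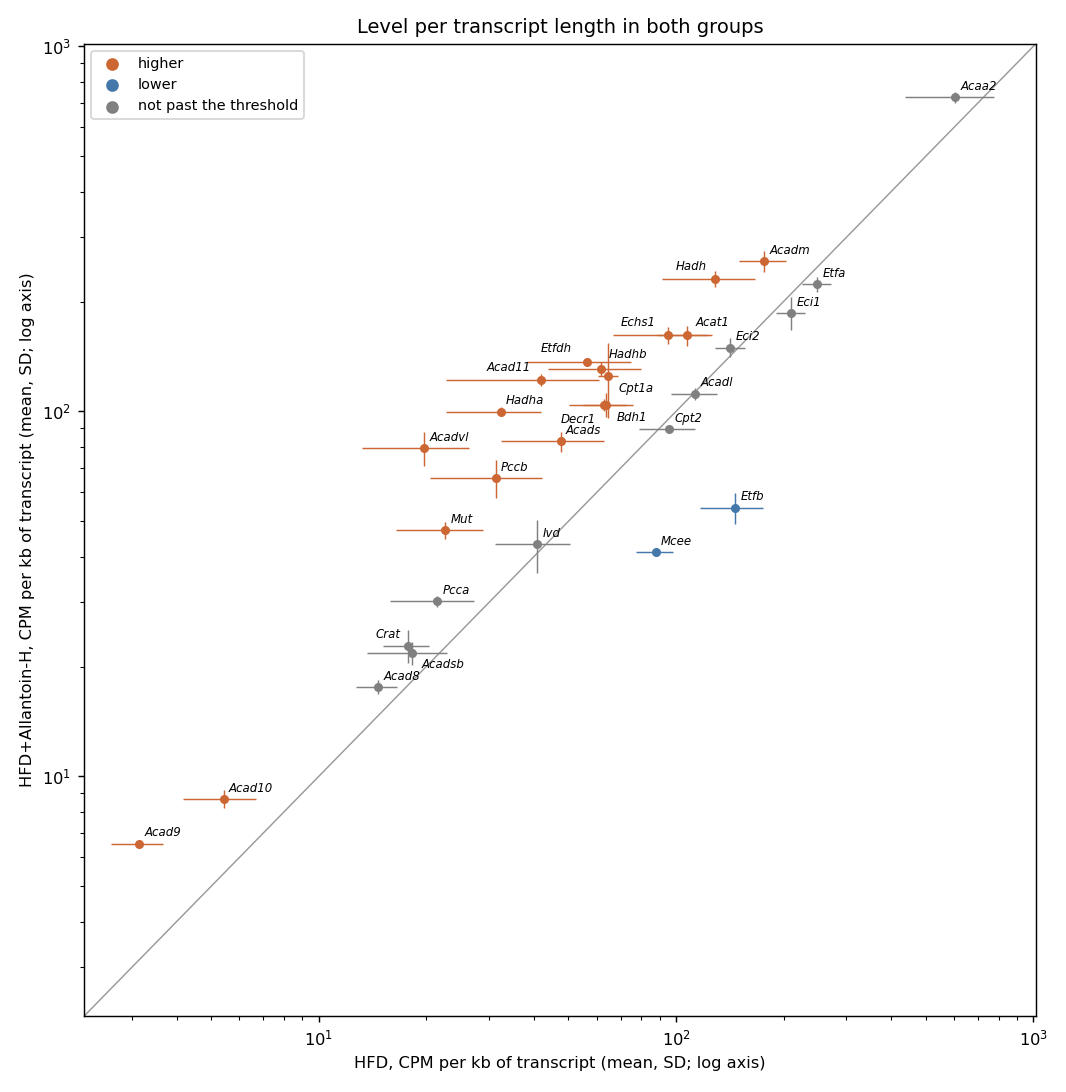
Mean level per kilobase of transcript in HFD (x axis) and in Allantoin-H mice (y axis), both in CPM per kilobase on log axes, with bars for the SD over 3 mice. Orange genes rose, blue genes fell and grey genes did not pass the test. Etfb and Mcee lie below the line of equal levels, and Acaa2 is highest on both axes.

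The genes that fell have the shortest transcripts of the 30. Etfb has 893 bases and Mcee 828, both in the shortest of 10 equal groups of all tested genes (up to 1038 bases), whose median log2 fold change was -0.58, against 0.16 in the longest group. Etfb lay 0.84 and Mcee 0.51 below that median. Across the 30 genes Spearman's rho between transcript length and log2 fold change was 0.43 and Pearson's r 0.56, against 0.24 and 0.23 across 12787 tested genes with a known length. These are descriptions across genes that share the same 6 libraries. With a fitted trend on length and GC content taken out of each library, Etfb was at -0.93 and Mcee at -0.78, both still lower by the test, 15 genes rose, and the median of the 30 genes was 0.51. The relation of RNA quality or library preparation to transcript length was not tested.

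**Figure D5:**
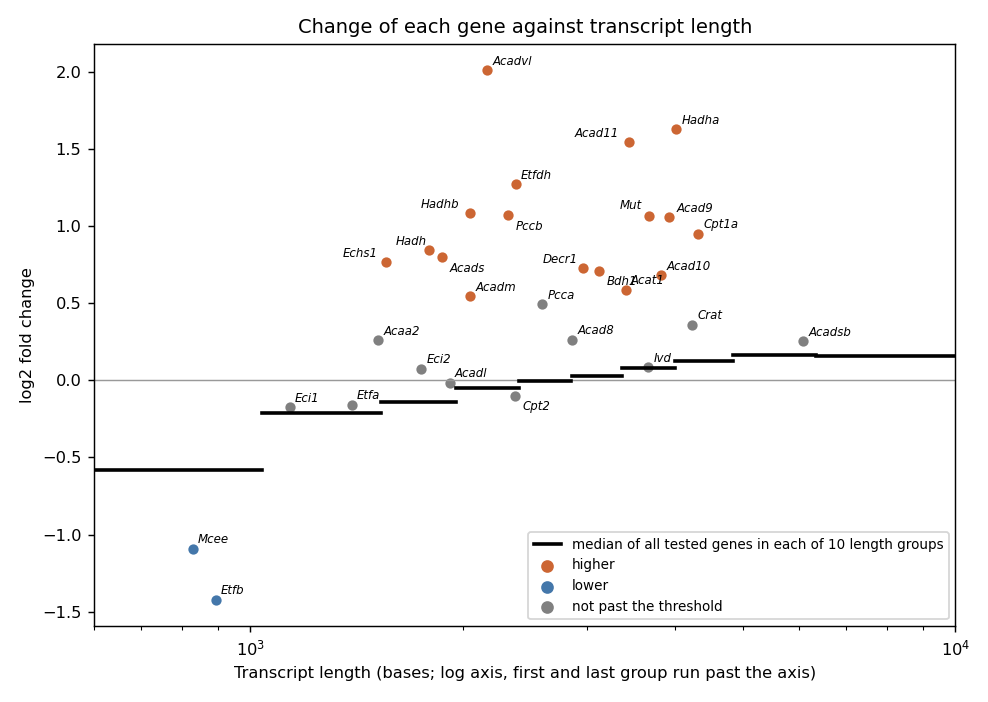
Log2 fold change (y axis) against transcript length in bases (x axis, log scale) for the 30 genes, with orange for genes that rose, blue for genes that fell and grey for genes that did not pass. Black bars are the medians of all tested genes in each of 10 groups by length, from -0.58 in the shortest to 0.16 in the longest, and Etfb and Mcee lie under the first bar.

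Outside the list of 30, 50 further genes of the pathway were looked at and 48 were tested. Of these 9 rose and 6 fell, where 11.3% and 13.0% of all tested genes did, with a median log2 fold change of 0.21. All 6 lower calls were lost without Allantoin-H replicate 4 and again without replicate 5. Cpt1b and Cpt1c, the muscle and brain forms of Cpt1a, were under the filter, at 0 to 9 and 3 to 11 counts. Entry of fatty acids gave 2 of 5 that rose, the carnitine transporter Slc22a5 (0.81) and Acacb (0.91), whose malonyl-CoA inhibits the Cpt1a product. The carrier Slc25a20, which works between Cpt1a and Cpt2, was at 143, 183 and 190 CPM in HFD and at 177, 165 and 164 CPM in Allantoin-H mice (log2 fold change -0.03, adjusted p = 0.911).

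Slc16a6, a transporter that exports ketone bodies, fell from 4.44 to 15.1 CPM to 3.08 to 4.33 CPM (log2 fold change -1.66, adjusted p = 0.0246), and that call was lost without HFD replicate 1 and without any 1 of the Allantoin-H libraries. It was also missed with limma-voom (adjusted p = 0.0527) and with scaling by library size only (adjusted p = 0.0526). Oxct1, which uses ketone bodies in other tissues, was at 1.67 to 10.7 CPM in HFD and at 3.02 to 4.25 CPM in Allantoin-H mice.

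Genes that work with the 30 in other ways were mixed. Bckdha, the subunit of the branched-chain keto acid dehydrogenase upstream of Acadsb, Acad8 and Ivd, was at 11.2, 17.5 and 14.1 CPM in HFD and at 48.3, 53.0 and 46.5 CPM in Allantoin-H mice. It rose (log2 fold change 1.78, adjusted p = 0.00204), but 61.66% of its exon bases lie opposite B3gnt8. Its partner Bckdhb did not pass (-0.13, adjusted p = 0.606). Of the 4 genes of cobalamin handling, which supply the mutase, Mmaa fell (-0.80, adjusted p = 0.0118) and the other 3 did not pass. Ecsit, a partner of the Acad9 product in complex I assembly, fell as well (-0.70, adjusted p = 0.0196), while none of the 4 genes of flavin supply and flavoprotein care passed. Acad12 rose (0.73), and Acot13 and Hibadh fell (-0.72 and -0.54). The calls of Acad12, Acot13, Hibadh and Ecsit were lost without any 1 of the Allantoin-H libraries, and that of Mmaa without replicate 4 or 5. Scaled by library size only, the lower calls were lost too, at a log2 fold change of -0.39 for Mmaa, -0.27 for Ecsit, -0.31 for Acot13 and -0.12 for Hibadh. Hibadh also lost its call without HFD replicate 2 and with no filter on low counts, and Acot13 with the length and GC trend removed.

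Of 11 regulators 4 rose and 1 fell, where 11.3% and 13.0% of all tested genes did. Ppara was at 39.1, 27.4 and 18.9 CPM in HFD and at 109, 146 and 91.4 CPM in Allantoin-H mice, with no overlap, and the gene of its partner, Rxra, was at 199, 212 and 187 CPM and at 391, 424 and 313 CPM (log2 fold change 0.92, adjusted p = 0.00787). The coactivator gene Ppargc1a (3.36 to 5.18 CPM in HFD and 6.82 to 9.52 CPM in Allantoin-H mice, adjusted p = 0.0343) and the deacetylase gene Sirt3 (log2 fold change 0.87, adjusted p = 0.0162) rose as well, and Ppargc1a lost the call without HFD replicate 1 or 2 or any Allantoin-H library, and with the length and GC trend removed. Sirt3 lost it without Allantoin-H replicate 4 or 5 (log2 fold change 0.78 and 0.85). Fgf21, a hormone gene that PPARα is known to induce, fell from 27.3, 4.54 and 2.84 CPM to 1.76, 0.71 and 2.43 CPM. HFD replicate 1 stood far above the other libraries: the log2 fold change was -2.82 (adjusted p = 0.0403) with it and -1.18, without a call, when it was left out. The call was also lost without any 1 of the Allantoin-H libraries, with limma-voom and with the length and GC trend removed. Pdk4, another PPARα target, ran from 3.06 to 32.6 CPM in HFD and from 3.90 to 11.7 CPM in Allantoin-H mice and did not pass (adjusted p = 0.300).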

How the data were processed

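Liver RNA was sequenced from the HFD group (3 mice) and the HFD+Allantoin-H group (3 mice), with 1 library per mouse. The deposited values are raw read counts per gene, which the authors obtained from filtered reads without normalization. The submitters' processing notes name GRCm38 (mm10), while the aligner, the counter and its strand setting are not given in the sources used here. Of 54961 features, 54532 with an Ensembl identifier were used and 429 without one were left out. No sample column was left unused. Groups came from the sample labels. Totals of 11326372 to 14601457 counts per library set the precision, and the tests rest on the spread between mice, with no pairing.

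The members and lists were chosen with earlier results of these data known, so that no count over them is independent evidence. Symbols, positions and transcript lengths came from GENCODE M21. Counts were fitted with edgeR 4.0.16 in R 4.3.3 (filterByExpr, TMM factors, quasi-likelihood test, group as the sole term, Benjamini-Hochberg adjustment over 12795 genes, threshold 0.05). The standard error was derived from the F statistic. CPM used TMM library sizes. Ratios used a pseudocount of 0.5. BLAST 2.17.0 was used to find transcripts that share 200 or more bases at 95% or more identity. Named were all 30 members, further pathway genes that passed or are given with their values, up to 3 markers per list, which left out most of the marker genes, and genes that share sequence with a member. Some further pathway genes are not reported here. The fit was tested on simulated data.

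The alternatives were RLE, upper-quartile and library-size scaling, DESeq2 1.42.0, limma-voom (limma 3.58.1), no filter on counts, a minimum of 10 counts per library, removal of the length and GC trend (splines with 5 degrees of freedom), leaving out the mitochondrial chromosome, keeping features without identifier, and leaving out each library.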

Additional observations from a re-analysis of the deposited data

How the results depend on the processing

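The counts of pathway genes that rose (17) and fell (2) were the same under RLE scaling, DESeq2, limma-voom, both other filters on low counts, without the mitochondrial chromosome and with features without an Ensembl identifier kept. The counts that rose were 16 under upper-quartile scaling, 20 with library size alone and 15 with the length and GC trend removed. Scaling by library size alone moved the median log2 fold change of all genes from -0.03 to 0.39 and that of the 30 genes from 0.64 to 1.05, and of the 50 further genes 23 rose and 1 fell, in place of 9 and 6. Leaving out 1 library at a time gave 6 to 17 of the 30 genes that rose and 2 that fell each time, and of the further genes 5 to 14 that rose and 0 to 9 that fell. Of the 30 genes 24 kept their sign throughout. The signs that changed belonged to genes that had not passed: with library size alone Cpt2 was at 0.31, Acadl at 0.39, Etfa at 0.25 and Eci1 at 0.24, with no filter Acadl at 0.022, and with the length and GC trend removed Acadsb at -0.057, Ivd at -0.071 and Eci1 at 0.082. Leaving out 1 library at a time put Cpt2 at -0.19 to 0.055 (above 0 without HFD replicate 2), Acadl at -0.091 to 0.11 (above 0 without HFD replicate 3 or Allantoin-H replicate 5) and Ivd at -0.050 to 0.30 (below 0 without HFD replicate 1 or Allantoin-H replicate 5). Of the 19 genes that passed, 8 kept the call under all alternatives and 11 lost it under at least 1, and Crat, Acad8 and Pcca gained one. No ratio changed direction with a pseudocount of 5 or without any library. The causes were not tested. No paired analysis was possible because the groups share no replicate number. Fitted values at a few counts per library, such as those of Fgf21, are the least precise.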
